A study of Mus musculus with 6 samples.

Results

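Genes for solute carriers, ion pumps and ion channels were examined in embryonic mouse retina, taken by symbol: every complete row of the deposited comparison whose gene symbol begins with Slc, Kcn, Cacn, Scn, Abc or Atp, apart from 1 symbol that the rule left out. These were 34 of 1140 rows, all on chromosome 1, and they comprised 21 Slc, 6 Kcn, 3 Atp, 2 Abc and 2 Cacn rows. No row began with Scn, the sodium channel prefix. Of 38 protein-coding chromosome 1 genes with these prefixes in the GENCODE M21 annotation, 33 had a row, and the other 5 were not analysed here. The remaining member, Slco6b1, is annotated there as a pseudogene.

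Total RNA was sequenced from C57BL/6 retinas at E15.5, an embryonic stage, in 6 libraries. The 3 control libraries carried the genotype T2fx/+, which the submitters call wild type, and the 3 others carried T2Isl1/+, a knock-in of Isl1 at Tbr2. All animals were therefore heterozygous for 1 of these alleles, and each library was a pool of 8 retinas. Isl1 encodes a LIM-homeodomain transcription factor and Tbr2 (Eomes) a T-box factor, both of retinal ganglion cells. The labels do not say whether pools came from separate litters, so the authors' p-values measure only the spread between these libraries. Isl1 and Eomes themselves were not analysed here, so the change at that allele could not be looked up. The question of the comparison is which transcripts differ between the genotypes.

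Solute carriers move ions, metals, vitamins and metabolites across membranes, usually driven by gradients of other solutes. ATP-driven pumps and ABC transporters spend ATP on that work, and voltage-gated potassium and calcium channels shape the electrical signals of neurons. In the developing retina, progenitors need nutrients and trace metals to divide, while many channels of mature retinal cells are expressed at high levels only as those cells differentiate.

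Each level is a single group value that the authors combined from the 3 libraries, in FPKM, which counts the sequenced fragments of a gene per kilobase of its transcript and scales them to the mapped fragments of the library. FPKM is scaled to transcript length, so levels can be set side by side between genes. With 1 value per group there is no replicate error, depth is unknown, and it cannot be said which neighbours in an order of levels differ beyond their spread. A gene was taken as expressed when the higher of its group values was at least 1 FPKM, as the rule sets. In retina as a whole, fewer cells of a type and less RNA per cell cannot be told apart.

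The tissue label was checked against markers with a row. Retinal genes were present, among them Hes6 at 380 and 414 FPKM and Fzd5 at 68.0 and 66.2 FPKM in control and knock-in, and 7 of 7 such rows were expressed. Lens crystallins also were present and differed between the groups. Of 8 lens rows the authors tested 7, and all 7 were called, that is, had an authors' q-value under 0.05, each lower. Over all 646 tested rows 10 were called (1.55%), these 7 among them. The lens rows had a summed level of 1038 FPKM in controls against 93.6 FPKM in the knock-in. Lgsn, the untested row, was listed at 0 in both. Mesenchyme and vessel markers summed to 38.1 and 29.3 FPKM over 6 rows, of which only Col3a1, at 5.76 and 0.637 FPKM, was called. Rgs5 had 7.55 and 7.18 FPKM and Cd34 6.66 and 6.86 FPKM, so the sum does not stand for each row. The pigment epithelium marker Mlph had 0.151 and 0.0998 FPKM. The part of lens, mesenchyme or muscle RNA in the values of the transporter and channel genes was not tested.

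At the floor of 1 FPKM 14 of the 34 members (41.2%) were expressed, against 596 of all 1140 rows (52.3%). Solute carriers made up 10 of the 14, with 2 Atp rows, 1 Abc row and 1 Kcn row. Of the other 20 members, 15 had a value above 0 in at least 1 group and 5 were listed at 0 in both. The lowest expressed member was Slc16a14, at 1.31 FPKM in controls against 1.19 FPKM in the knock-in. The highest below the floor was Kcnh1, at 0.877 and 0.781 FPKM.

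None of the transporter and channel genes was called changed in the knock-in. The authors had tested 17 of the 34 members, the 14 expressed genes and 3 below the floor. At a q-value under 0.05, 0 of these 17 passed in the authors' deposited table, which has the layout of a Cuffdiff comparison from the Cufflinks tools, against 10 of 646 tested rows (1.55%). At an unadjusted p-value under 0.05 the count was also 0 of 17, against 24 of 646 rows (3.72%) in the authors' deposited table. With so low a background, 0 of 17 is near what the rest of the table shows and says little about these genes. The smallest unadjusted p-value of a member was 0.228, for Kcnb2, in the authors' deposited table.

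The promoters of 4 members are printed here as examples. CpG dinucleotides, common near the starts of broadly active genes, were counted beside the gene's level for every member with a window. These 4 all follow the pattern described below, and exceptions are named after it. The windows are the 250 bases before the RefSeq start of each gene (build GRCm38.p6, 5′ to 3′ on the gene's strand), with every CpG in capitals. Slc35f5 (chr1:125560345-125560594, plus strand) and Slc19a2 (chr1:164248796-164249045, plus strand) were expressed. Slc19a3 (chr1:83038449-83038698, minus strand), the sister gene of Slc19a2, was below the floor, and Atp6v1g3 (chr1:138273488-138273737, plus strand) was listed at 0.
Slc35f5: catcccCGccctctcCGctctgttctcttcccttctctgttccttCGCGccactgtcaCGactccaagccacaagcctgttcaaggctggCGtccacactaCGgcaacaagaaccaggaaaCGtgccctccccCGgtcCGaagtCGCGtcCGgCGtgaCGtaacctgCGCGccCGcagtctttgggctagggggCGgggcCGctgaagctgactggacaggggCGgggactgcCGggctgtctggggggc
Slc19a2: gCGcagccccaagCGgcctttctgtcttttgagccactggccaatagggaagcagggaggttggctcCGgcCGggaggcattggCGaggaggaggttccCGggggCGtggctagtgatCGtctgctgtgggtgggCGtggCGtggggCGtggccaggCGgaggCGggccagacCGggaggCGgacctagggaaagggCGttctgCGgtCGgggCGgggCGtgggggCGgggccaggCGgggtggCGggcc
Slc19a3: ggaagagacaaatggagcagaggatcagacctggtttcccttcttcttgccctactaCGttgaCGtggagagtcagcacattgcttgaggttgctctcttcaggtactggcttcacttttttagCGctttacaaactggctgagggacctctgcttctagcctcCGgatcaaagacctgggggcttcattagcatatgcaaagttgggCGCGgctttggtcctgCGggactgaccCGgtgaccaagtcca
Atp6v1g3: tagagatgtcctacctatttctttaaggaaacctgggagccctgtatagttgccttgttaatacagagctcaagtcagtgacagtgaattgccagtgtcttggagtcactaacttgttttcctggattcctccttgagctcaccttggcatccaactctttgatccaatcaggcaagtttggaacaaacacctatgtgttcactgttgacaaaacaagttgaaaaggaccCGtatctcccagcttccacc

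These windows held 22 CpG for Slc35f5, 23 for Slc19a2, 8 for Slc19a3 and 1 for Atp6v1g3. A window lay within 500 bp of the row's own start for 7 of the 14 expressed members and for 16 of the 20 others. The median count was 20 CpG in those 7 and 6.5 in those 16, while over all rows with such a window it was 17 in 369 rows of at least 1 FPKM and 4 in 304 rows under it. At least 10 CpG were present in 6 of the 7 expressed members (85.7%) and in 4 of the 16 others (25.0%), against 78.9% and 19.1% of all rows in the same classes and 51.9% of all 673 rows. The members thus followed the rest of the table. The motif was counted as the letters CG, which read the same on both strands, and these counts are a description of the windows.

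Exceptions stood on both sides. Abcb6 was expressed at 15.2 FPKM in control with 9 CpG, fewer than any other expressed member with a nearby window. Kcnh1 and Kcnj10 held 17 CpG each, yet stood at 0.877 and 0.428 FPKM in control. With windows at any distance from the row's start, the medians were 18 CpG in 10 expressed members and 7 in 18 others. The window of Slc39a10, with 37 CpG the richest of all members, lies wholly within annotated exons in GENCODE M21. The same holds for the windows of Abcb6, Kcnq5 and Cacna1e, with 9, 14 and 6 CpG.

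**Figure D1:**
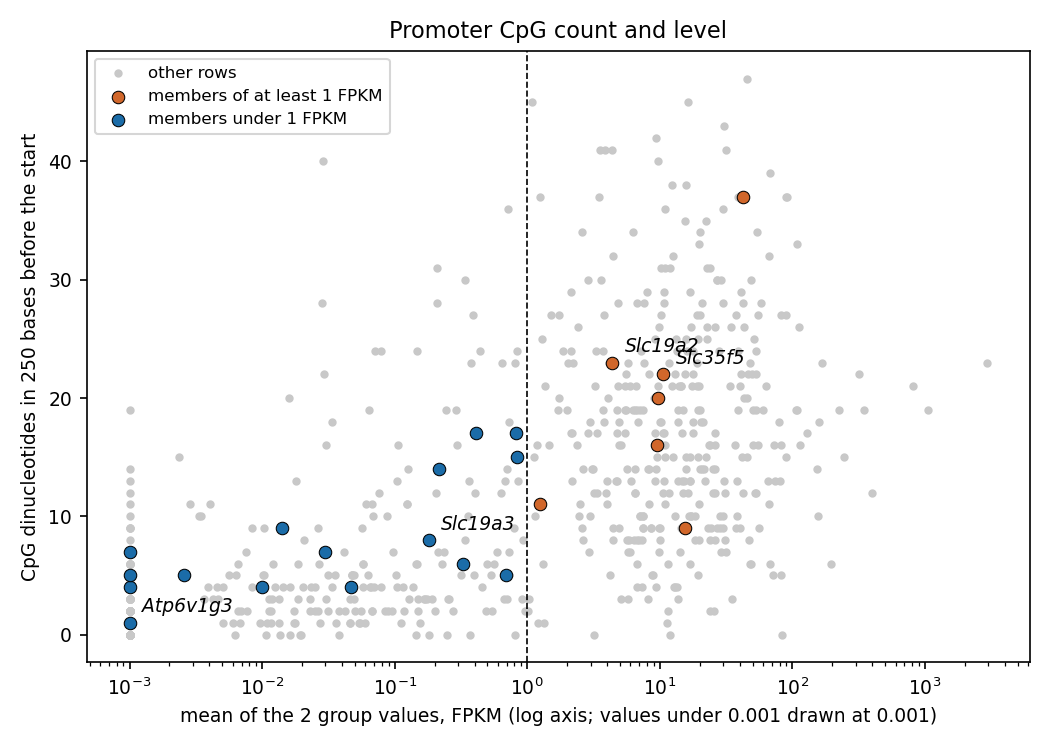
CpG dinucleotides in the 250 bases before the RefSeq start (vertical axis) against the mean of the 2 group values in FPKM (horizontal log axis), for rows with a window within 500 bp of their own start. Orange points are the 7 members of at least 1 FPKM, with 9 to 37 CpG, blue points the 16 members under it, with 1 to 17, and grey points all other rows; the dashed line marks 1 FPKM.

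Pump genes gave the highest member. Atp6v1h (chromosome 1, 5083093 to 5162549, plus strand, mm10), which encodes subunit H of the vacuolar proton pump that acidifies lysosomes and synaptic vesicles, had 42.5 FPKM in T2fx and 46.7 FPKM in T2Isl1 retinas. It ranked 91 of 1140 rows by the mean of its group values. The knock-in value was 9.69% higher, with an unadjusted p-value of 0.258 in the authors' deposited table. Its exons overlap those of Rgs20 on the opposite strand, and since no source used here says whether counting kept the strand, reads of such partners cannot be told apart.

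The other pump rows were far lower. Atp6v1g3, a subunit G isoform of the same pump known from kidney, was listed at 0 in both groups. Atp2b4, a plasma membrane calcium pump that extrudes calcium from the cell, is joined in its row with Lax1, a lymphocyte adaptor gene, so its share of the value is unknown. That row had 3.73 FPKM in controls against 3.48 FPKM in the knock-in. The genes of subunit H and of this subunit G isoform thus stood at opposite ends of the range. No other subunit G gene was among the members.

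Zinc carriers made up the largest share of solute carrier transcripts. Slc39a10 (46807544 to 46853509, minus strand), which encodes the zinc importer ZIP10 of the plasma membrane, had 40.7 FPKM in T2fx and 43.7 FPKM in T2Isl1 retinas and ranked 99 of 1140. Slc30a1 (191894072 to 191913247, plus strand), which encodes the zinc exporter ZnT1, had 7.65 and 7.21 FPKM. The importer gene was therefore 5.32 times the exporter gene in control and 6.07 times in the knock-in. The knock-in value was 7.50% higher for Slc39a10 and lower for Slc30a1, a change of -5.76%, and their unadjusted p-values were 0.339 and 0.511 in the authors' deposited table. Slc30a10 (185447116 to 185468761, plus strand), a member of the same exporter family known for manganese efflux, had 3.13 and 3.09 FPKM. Slc30a1 and Slc30a10 each overlap an antisense or noncoding gene on the other strand.

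Atp6v1h and Slc39a10 together held 52.4% of the summed FPKM of the 14 expressed members in control and 54.5% in the knock-in. The sums were 159 and 166 FPKM, a ratio of 1.04. Thus these genes of vesicle acidification and zinc uptake outweighed the other 12 in both genotypes. Only they and Abcb6 lay above 10.7 FPKM, the median of tested rows.

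Iron and heme genes spanned a wide range. Abcb6 (75171641 to 75180401, minus strand), an ABC transporter of porphyrins, the precursors of heme, had 15.2 FPKM in controls against 15.7 FPKM in the knock-in. Slc40a1 (45908070 to 45925594, minus strand) encodes ferroportin, the iron exporter of animal cells, and had 1.51 and 1.83 FPKM. The exons of Abcb6 overlap the same-strand transcript Gm29253. For Slc40a1 the knock-in value was 21.9% higher, the largest relative difference of any expressed member, with an unadjusted p-value of 0.260 in the authors' deposited table. Slc11a1, the iron and manganese transporter of macrophage phagosomes, was below the floor at 0.707 and 0.676 FPKM. Of the 3 other macrophage markers with a row, Il10 was listed at 0 in both groups, Ptprc stood at 0.139 and 0.0920 FPKM and Marco at 0.00979 and 0.0174 FPKM. The summed level of all 4 was 0.856 FPKM in T2fx and 0.785 FPKM in T2Isl1 retinas, most of it from Slc11a1 itself. The part of macrophage RNA in the Slc11a1 value was not tested.

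Magnesium and bicarbonate carriers were expressed at like levels in both genotypes. Slc41a1 (131827981 to 131848865, plus strand), a magnesium transporter, had 9.51 and 9.42 FPKM. Slc4a3 (75546112 to 75561623, plus strand) encodes the chloride-bicarbonate exchanger AE3 of neurons and heart, and had 9.88 and 9.64 FPKM. The other anion and proton exchangers were barely detected. Slc9a2, a sodium-proton exchanger of epithelia, had 0.0104 and 0.0284 FPKM, and its paralogue Slc9a4 was listed at 0 in both groups. The epithelial chloride carrier Slc26a9 had 0.0199 FPKM in control and was listed at 0 in the knock-in. Of this exchanger group 1 of 4 genes was expressed.

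The thiamine carriers formed a contrasting pair. Slc19a2 (164249043 to 164265385, plus strand), an importer of thiamine (vitamin B1), had 4.10 FPKM in controls against 4.61 FPKM in the knock-in. Slc19a3, the other thiamine importer, had 0.193 and 0.168 FPKM. Slc19a2 was 21.2 times Slc19a3 in control and 27.5 times in the knock-in, and the 2 promoters printed above held 23 and 8 CpG. For Slc19a2 the knock-in value was 12.5% higher, with an unadjusted p-value of 0.307 in the authors' deposited table.

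Organic anion carriers share the first letters Slc through their Slco symbols. Slco5a1 (12866550 to 12993412, minus strand), an orphan member of this family, was its 1 expressed gene of 5, with 6.58 FPKM in T2fx and 6.23 FPKM in T2Isl1 retinas. Slco4c1, known from kidney, had 0.106 and 0.0152 FPKM, too low to have been tested. Slco6b1, Slco6c1 and Slco6d1, of a subfamily known from testis, were listed at 0 in both groups. Without the Slco rows, 9 of 16 Slc rows (56.2%) were expressed, against 52.3% of all rows.

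Among the remaining solute carriers, Slc35f5 (125560631 to 125595747, plus strand), an orphan of the nucleotide-sugar carrier family, had 10.5 FPKM in controls against 10.6 FPKM in the knock-in. Slc16a14 (84905346 to 84935347, minus strand), an orphan of the monocarboxylate carrier family, had 1.31 and 1.19 FPKM. Slc45a3, a carrier best known from prostate, had 0.863 and 0.799 FPKM. Slc23a3, an orphan relative of the vitamin C carriers, had 0.0381 and 0.0555 FPKM. Abca12, the ABC transporter that loads lipids into skin lamellar granules, had 0.00264 and 0.00251 FPKM.

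**Figure D2:**
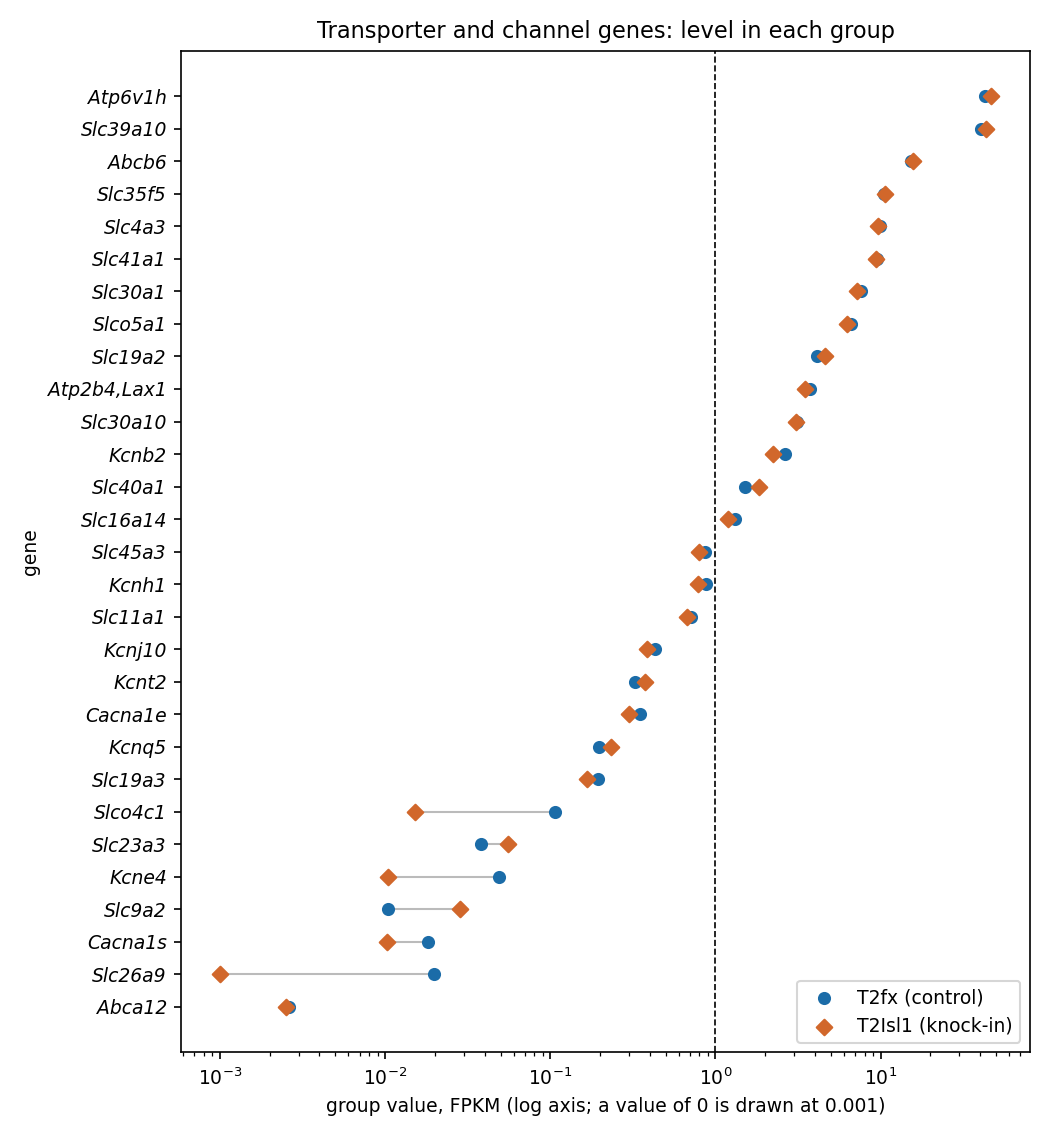
Group values in FPKM (horizontal log axis) of the 29 members above 0 in at least 1 group, ordered by mean level, with control T2fx as blue circles and knock-in T2Isl1 as orange diamonds. The dashed line marks 1 FPKM; the 14 genes to its right nearly coincide between genotypes, from Atp6v1h at 42.5 and 46.7 FPKM to Slc16a14 at 1.31 and 1.19 FPKM, and Slc26a9 is listed at 0 in the knock-in.

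Potassium channel genes were low in both genotypes, with 1 of 6 expressed. Kcnb2 (15285291 to 15714214, plus strand) encodes Kv2.2, a delayed-rectifier channel of neurons, and had 2.62 FPKM in T2fx and 2.23 FPKM in T2Isl1 retinas. The knock-in value differed by -14.8%, the largest relative decrease of an expressed member, with an unadjusted p-value of 0.228 in the authors' deposited table. Kcnh1, which encodes the ether-a-go-go channel Kv10.1, had 0.877 and 0.781 FPKM (unadjusted p-value 0.444 in the authors' deposited table). Neither difference passed the test.

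The other 4 potassium channel genes were not tested by the authors. Kcnj10, which encodes the Kir4.1 channel of mature Müller glia, had 0.428 FPKM in controls against 0.386 FPKM in the knock-in. Kcnt2, a sodium-activated channel, had 0.327 and 0.374 FPKM. Kcnq5, a channel of the slow M-current, had 0.198 and 0.233 FPKM. Kcne4, a small accessory subunit, had 0.0491 and 0.0105 FPKM.

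Neither calcium channel gene was expressed by the floor used. Cacna1e, which encodes the R-type channel of neurons, had 0.350 FPKM in T2fx and 0.301 FPKM in T2Isl1 retinas. Cacna1s, the voltage sensor of skeletal muscle, had 0.0182 and 0.0103 FPKM. Skeletal muscle markers had a summed level of 4.39 FPKM in controls against 1.58 FPKM in the knock-in over 9 genes with a row. Of these, 3 were tested and only Chrng, at 1.62 and 0.300 FPKM, was called, against 10 of all 646 tested rows (1.55%). Tnni1, at 0.917 and 0.143 FPKM, and Myl1, at 0.798 and 0.328 FPKM, were tested and not called. Chrnd was listed at 0 in both groups. The part of muscle RNA in the Cacna1s values was not tested.

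The channel genes were the long genes among the members. The longest locus was that of Kcnq5, at 564 kb, followed by Kcnb2 at 429 kb, Kcnt2 at 410 kb, Cacna1e at 333 kb and Kcnh1 at 319 kb. Of the 8 Kcn and Cacn rows 5 covered 200 kb or more, with a median of 326 kb, and 0 of the 21 Slc rows did, with a median of 26.4 kb. Kcne4 was the shortest of all members at 3.08 kb. Of the 5 long channel genes, 1 was expressed, while among all 1140 rows, 54 of at least 1 FPKM and 45 under it covered 200 kb or more.

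Differences between the genotypes were small for every expressed member. Of the 14, 6 had a higher and 8 a lower value in the knock-in, while 331 of 596 tested rows at this level (55.5%) were higher. The median log2 ratio of the 14 was -0.02, against 0.02 in those 596 rows, and the median size without sign was 0.09 against 0.08. By size 0 of the 14 differed by 1.5-fold or more, against 14 of the 596 rows (2.35%), and the largest fold of a member was 1.22, for Slc40a1. The log2 ratios ran from -0.23 for Kcnb2 to 0.29 for Slc40a1, and those of all 596 rows from -0.24 to 0.23 between the 5th and 95th percentiles. Slc40a1 alone lay outside that range. The smallest fold of any called row was 1.79, so differences of the size seen in these genes were not called in any row.

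**Figure D3:**
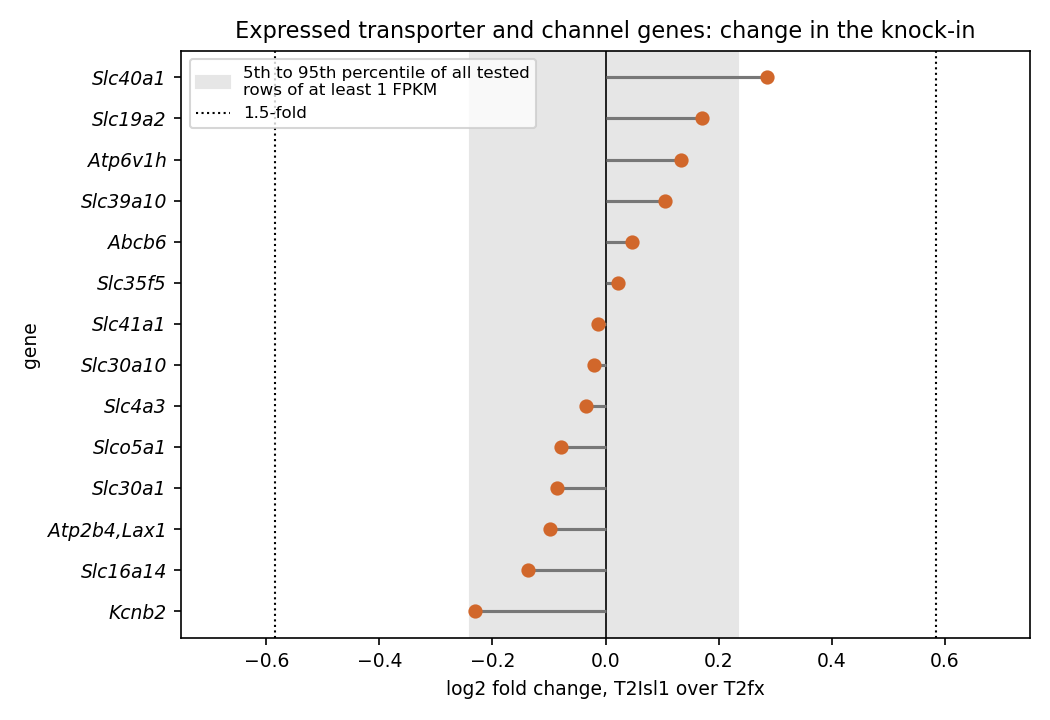
Log2 ratio of the knock-in over the control group value (horizontal axis) for the 14 expressed members, with 1 line per gene from 0. The grey band spans the 5th to 95th percentile of all 596 tested rows of at least 1 FPKM, -0.24 to 0.23, and the dotted lines mark 1.5-fold; Slc40a1, at 0.29, is the 1 member outside the band.

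Other channel and transport genes, named otherwise than by these prefixes, were read from a list of 82 symbols, of which 19 had a row and 14 were tested. Of these 14, 1 was called, against 1.55% of all 646 tested rows: Chrng, the fetal muscle acetylcholine receptor subunit, which was lower. The 13 list members of at least 1 FPKM also included Mpc2, a subunit of the mitochondrial pyruvate carrier, with 49.9 FPKM in T2fx and 55.7 FPKM in T2Isl1 retinas. Xpr1, the phosphate exporter, had 31.8 and 29.0 FPKM. Tmco1, a calcium leak channel of the endoplasmic reticulum, had 11.4 and 13.6 FPKM and an unadjusted p-value of 0.0432 in the authors' deposited table, and its q-value of 1.00 did not pass. The other 13 tested genes of the list were not called.

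Partners of transporter and channel families, and other genes of the list, were expressed as well. Cnnm3 and Cnnm4, of a family of magnesium transport regulators, had 10.5 and 10.9 FPKM and 6.50 and 6.15 FPKM in control and knock-in, near the 9.51 and 9.42 FPKM of Slc41a1. Tmem9, a lysosomal protein reported to bind the vacuolar pump, had 79.2 and 85.4 FPKM. Dpp10, an accessory subunit of Kv4 potassium channels, had 1.56 and 1.35 FPKM. Unc80, a subunit of the sodium leak channel complex, had 1.36 and 1.27 FPKM. No Kv4 or sodium leak channel gene was among the members. Asic4, of the acid-sensing channel family, had 1.62 and 1.55 FPKM, and Cnga3, the cone cyclic nucleotide-gated channel, had 1.53 and 1.14 FPKM. The zinc-binding vesicle protein gene Tmem163 had 6.04 and 5.59 FPKM, Mfsd6 had 3.77 and 3.62 FPKM and Mfsd9 had 1.65 and 1.75 FPKM. Neuronal channel genes of this list, like the Kcn and Cacn members, stood at or under the 2.62 FPKM of Kcnb2.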

How the data were processed

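Tools listed without roles in the submitters' processing notes are Cufflinks 2.1.1, TopHat2 2.1.1 and CASAVA, with the build mm10. The deposited table holds 1 group value per gene, read as FPKM because of the tool named, since the file headers say only value. The authors' log2 fold changes, p-values and q-values are as deposited, per the file headers, and the authors' test score was not used. The gene annotation and the strand setting are not given in the sources used here. Rows with all fields were kept (1140), and 1 incomplete row was left out. Depth is unknown.

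Groups came from the sample labels. Nothing was refitted: calls are the authors' q-value under 0.05 over their whole table. Percentages, log2 ratios of group values without pseudocount, ranks and medians were computed with Python 3.11.15, pandas 2.3.3 and numpy 2.4.6. Positions count from 1. Gene types and overlaps come from GENCODE M21 and promoters from RefSeq (GRCm38.p6), found for 28 of 34 members. The window nearest the row's start was used, and 250 bases before the start were counted. The code was tested on simulated data.

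The members and lists were chosen with earlier results of these data known. Every member of at least 1 FPKM was named, as was every lower one above 0, together with list genes of at least 1 FPKM and markers that results turn on. Alternatives covered thresholds, floors, a pseudocount, minimum folds and centring.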

Additional observations from a re-analysis of the deposited data

How the results depend on the processing

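The count of called members was 0 at a q-value under 0.05 or 0.1, at an unadjusted p-value under 0.05 and with adjustment over the 646 tested rows alone. Expressed members numbered 17 at a floor of 0.5 FPKM and 12 at 2 FPKM, against 14. The median log2 ratio of expressed members lay between -0.07 (no floor) and 0.005 (floor of 5 FPKM), where it changed sign, so it gives no direction. A pseudocount of 1 or centring changed the sign of 0 of 28 values of single members. It moved Slc40a1 most, from 0.29 to 0.18. Minimum folds of 1.5 and 2 and a pseudocount of 1 each gave 0 expressed members past the fold. The table gives group values only, so low genes have no stated precision.

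No paired analysis was possible because replicates of each genotype had been merged by the authors into a single value.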

Other observations

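Some members lie near each other on chromosome 1, with other genes between some of them, and stood at very different levels, while other such groups were low throughout. Slc23a3, at 0.0381 FPKM in control and 0.0555 FPKM in the knock-in, lies 37.8 kb from Abcb6 on the same strand, which was 400 times as high in control and 284 times in the knock-in. Slc41a1 lies between Slc26a9, 57.6 kb away, and Slc45a3, 114 kb away, all on the plus strand. Slc41a1 was 11.0 times Slc45a3 in control and 11.8 times in the knock-in, and Slc26a9 was at or near 0. Slc9a4 and Slc9a2, 51.0 kb apart, were both low, and so were Slco4c1, Slco6b1 and Slco6c1, which are separated by 24.9 and 61.9 kb. These pairs were looked up after the levels were seen.

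Below the floor, some members had a larger relative difference between the group values than any expressed member, though not a larger difference in FPKM. Slco4c1 had 0.106 and 0.0152 FPKM and Kcne4 had 0.0491 and 0.0105 FPKM. None of these rows was tested by the authors, and no value per library was analysed here.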
